A study of Mus musculus with 6 samples.

Results

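The genes of antigen presentation by major histocompatibility complex (MHC) molecules were followed in 6 RNA-seq libraries of mouse kidney. Members were all gene symbols that begin with H2- (the mouse MHC), without names ending in -ps, together with B2m, Cd74, Tap1, Tap2, Tapbp, Psmb8, Psmb9, Psmb10, Ciita and Nlrc5. This gave 52 of the 51804 gene symbols in the table: 4 of class I, 26 of class Ib, 11 of class II, 3 of peptide loading, 3 of the immunoproteasome and 5 other H2- names. In 3 libraries, labelled knockout below, the genotype was Ccnb1f/f;Cdh16-Cre, and in the 3 controls it was Ccnb1f/f, so both groups carried the floxed cyclin B1 alleles and the Cre transgene was the labelled difference. The Cdh16 promoter drives Cre in tubular epithelium, whereas most class II expression in kidney is known from immune cells that do not use this promoter. Whole kidney was profiled, so that fewer cells of a type and less RNA per cell cannot be told apart. Neither age nor strain is stated in the labels, nor whether replicates were separate animals, so p-values measure only how far these libraries scatter, and that scatter may be technical.

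Class I molecules consist of a heavy chain (H2-K1 and H2-D1) and beta-2-microglobulin (B2m), and show peptides from the cell's own proteins to CD8 T cells. The peptides are cut by the proteasome, whose inducible catalytic subunits are Psmb8, Psmb9 and Psmb10, moved into the endoplasmic reticulum by the transporter Tap1 and Tap2, and loaded with the help of tapasin (Tapbp). Class II molecules (H2-Aa with H2-Ab1, and an E beta chain, H2-Eb1) are made by antigen-presenting cells, where the invariant chain Cd74 guards the groove and H2-DM exchanges its contents. Nlrc5 and Ciita are the transactivators of class I and class II promoters, and interferon gamma raises the whole pathway, in part through Irf1. MHC chain genes are among the most polymorphic genes of the mouse and differ in sequence between inbred strains.

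Promoter sequence was available for 37 of the 52 members (RefSeq, GRCm38.p6, 250 bases before to 50 after the annotated start). A few of these genes are shown because the results turn on them: H2-K1, H2-T22 and H2-Aa stood far lower in 1 control than elsewhere, B2m stood highest in that same control, and H2-Q6 had the lowest p of the members. Each sequence runs 5′ to 3′ from 180 to 11 bases before the start and lies outside annotated exons. Capitals mark 3 motifs on either strand: CCAAT, the core of the Y box; TGACG, the core of the cyclic AMP response element, as in the X2 box and site alpha; and the core of the interferon-stimulated response element, a pair of TTTC runs with any 2 bases between them. Matches on the reverse strand are capitalised too, as their reverse complement, and overlapping matches run together.
H2-K1: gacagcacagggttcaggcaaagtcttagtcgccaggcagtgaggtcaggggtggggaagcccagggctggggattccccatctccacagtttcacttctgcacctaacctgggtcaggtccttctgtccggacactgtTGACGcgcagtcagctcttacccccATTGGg
H2-T22: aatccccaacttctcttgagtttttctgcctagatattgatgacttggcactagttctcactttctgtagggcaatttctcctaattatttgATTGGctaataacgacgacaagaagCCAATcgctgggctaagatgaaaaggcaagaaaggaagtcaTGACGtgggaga
H2-Aa: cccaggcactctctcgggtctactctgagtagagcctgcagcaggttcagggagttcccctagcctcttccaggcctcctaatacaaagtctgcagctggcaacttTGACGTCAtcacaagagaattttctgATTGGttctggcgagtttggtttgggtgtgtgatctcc
B2m: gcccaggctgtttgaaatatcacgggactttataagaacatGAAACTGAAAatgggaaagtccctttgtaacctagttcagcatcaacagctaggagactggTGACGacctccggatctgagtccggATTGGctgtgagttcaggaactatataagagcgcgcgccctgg
H2-Q6: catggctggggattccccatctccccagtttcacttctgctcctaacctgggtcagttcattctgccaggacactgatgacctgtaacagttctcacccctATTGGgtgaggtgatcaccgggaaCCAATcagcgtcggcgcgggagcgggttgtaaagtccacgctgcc
The windows lie at chr17:34000358-34000527 (H2-K1, minus strand), chr17:36042753-36042922 (H2-T22, minus), chr17:34287834-34288003 (H2-Aa, minus), chr2:122147507-122147676 (B2m, plus) and chr17:35424670-35424839 (H2-Q6, plus). The Y box core was present in the promoter of 32 of the 37 members (86.5%), against 41.1% of 27025 genes in the promoter table. TGACG was present in 15 (40.5%, against 23.0%), both in 15 (40.5%, against 9.99%), and the interferon element core in 3 (8.11%, against 3.99%): B2m, H2-T22 and H2-T23. In the H2-T22 promoter this core lay outside the window shown. By class, all 3 class I promoters in the table held both CCAAT and TGACG, while all 8 class II promoters held CCAAT and 1 of 8, that of H2-Aa, held TGACG. A match of letters is a description and not a measured binding site. Sequences that depart from a pattern by a few letters were not counted, so a promoter without a match may still hold such an element.

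Depth ranged from 16061435 to 21261226 estimated counts. Levels are given as CPM, counts scaled to TMM-normalised library size. A gene with no count could still be present at up to 3 counts, or 0.138 to 0.189 CPM by library, for counting error only. For Ccnb1, knockout 1 to 3 held 18, 15 and 11 counts and control 1 to 3 held 11, 17 and 7 (log2 fold change 0.34, SE 0.46; edgeR adjusted p = 0.9995), so the targeted gene does not check the labels. The 7 kidney tubule markers summed to between 15440 and 17650 CPM in all 6 libraries, but single markers were less even. Control 2 was lowest for Slc34a1 (4545 CPM, 5306 to 6827 elsewhere) and Cdh16 (996 CPM, 1126 to 1189 elsewhere). It was highest for Slc12a1 (1555 CPM, 1023 to 1369 elsewhere) and Aqp2 (344.5 CPM, 127 to 288 elsewhere). Of the 52 members, 35 passed the expression filter and were tested, 14 had no count in any library, and 3 (H2-Eb2, H2-Bl and H2-M5) held up to 29 counts without passing. The 14 at 0 were H2-M1, H2-M9, H2-M11, H2-T3, H2-Q3, all 6 of the H2-M10 genes, and 3 of the other H2- names (H2-Pa, H2-Pb and the pseudogene H2-M10.5-ps1).

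Control 2 stood apart from the remaining libraries in the members, and in opposite directions for different genes. Against the median of the other 5 libraries, control 2 lay over 4-fold lower for 7 of 35 members (H2-K1, H2-Aa, H2-Ab1, H2-DMb1, H2-Q5, H2-T22 and H2-T23), where 0.473% of all 15017 genes did so, and over 4-fold higher for 1 member, Nlrc5 (0.28% of all genes). In the other libraries a single value passed the same bound, that of H2-Q1 in control 3 (0.306% of all genes lay below it there). Control 2 was the lowest of the 6 libraries for 12 members and the highest for 17, against 22.8% and 23.8% of all genes. The members at their highest included B2m, H2-D1, Nlrc5, Cd74, Ciita and all of Tap1, Tap2, Tapbp, Psmb8, Psmb9 and Psmb10. Genes of opposite direction lay side by side: H2-DMb2 was 1.77 log2 units above the median of the other 5 and its neighbour H2-DMb1 was at -2.15. The interferon-responsive factor Irf1, named after its values were seen, was also highest in control 2, at 37.1 CPM (12.4 to 22.5 elsewhere). The part of interferon signalling in the member levels was not tested. The counts are reads assigned to GRCm38 transcripts. Strain and MHC haplotype are not labelled for any of the 6 libraries. A low count, in control 2 or in another library, can therefore be a low transcript level or reads that did not match the reference allele. These cannot be told apart from the deposited values. Labelled knockout values of H2-T23 and H2-Q5, for example, lay between that of control 2 and those of controls 1 and 3. Values without control 2 are given beside the log2 fold changes, and leaving it out does not remove this limit.

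**Figure D1:**
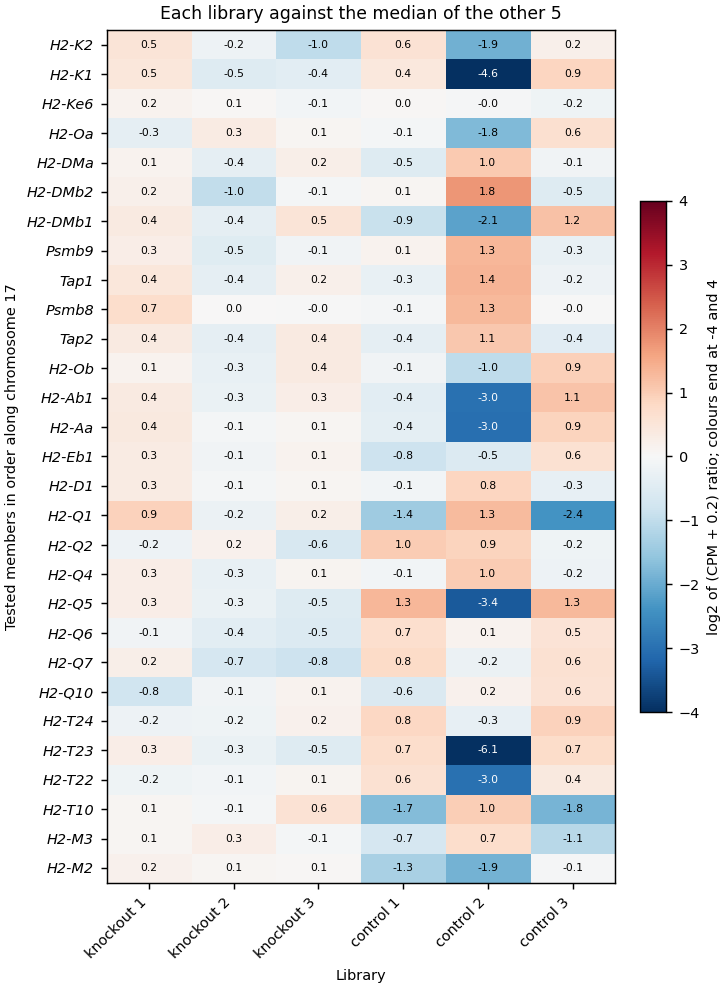
Heat map of the 29 tested members in the MHC interval of chromosome 17, in chromosomal order (rows), by library (columns); each cell is the log2 ratio of that library's CPM to the median of the other 5 libraries, with 0.2 CPM added to both and colours capped at 4 in either direction. The control 2 column holds both the darkest blue cells, H2-T23 and H2-K1 (-4.61), and red cells such as H2-DMb2 (1.77) and Tap1 (1.37).

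Between the groups, edgeR's quasi-likelihood test called 0 of 35 members at an adjusted p under 0.05, and 0.0133% of all genes. At an unadjusted p under 0.05 there were 3 members (H2-Q6, H2-Q7 and Ciita, each with a negative log2 fold change of labelled knockout over control), against 3.23% of all genes, and DESeq2 called 0 members. Groups did not overlap for 3 of 35 (H2-Q6, Ciita and H2-M2), close to the 8.18% of all genes. The median log2 fold change over tested members was -0.13, with 13 above and 22 below 0, beside -0.01 over all genes. Without control 2 the median was 0.02, with 19 above and 17 below 0. There was then again no call among 36 tested members (0.0197% of all genes were called), but 11 had an unadjusted p under 0.05 (4.51% of all genes) and 16 did not overlap between groups (19.3% of all genes). Class Ib, with 14 tested, gave 10 of these 11 and 11 of these 16. Class II, with 10 tested, gave 0 and 1, and class I, with 4 tested, gave 1 and 2. Some class Ib genes share transcript sequence, as given below, so they are not fully separate observations. The sign of the fold change turned for 19 of 33 members when control 2 was left out.

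**Figure D2:**
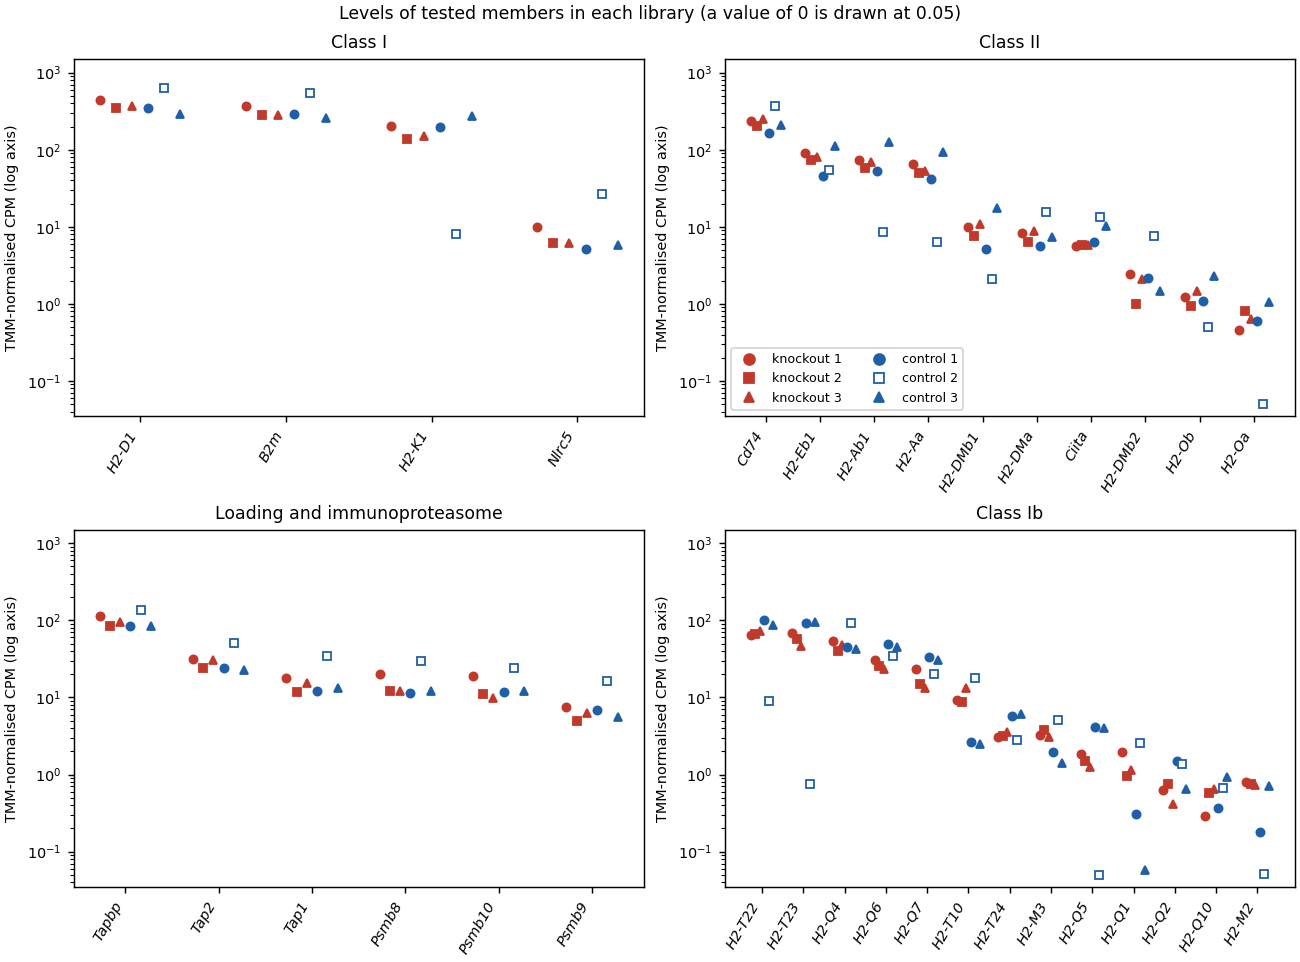
TMM-normalised CPM (log axis) of each tested member in each library, by class; red symbols are labelled knockout, blue symbols control, and the open square is control 2. The open square lies above the other symbols for B2m, H2-D1 and the loading genes and falls to 0.760 CPM for H2-T23 and 7.96 CPM for H2-K1.

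Of the class I chains, H2-D1 (ENSMUSG00000073411, chromosome 17, 35262730 to 35267499, GRCm38) had 440, 350 and 370 CPM in the libraries labelled knockout and 346, 630 and 293 CPM in the controls, in the order 1 to 3 within each group, as for all values below. H2-K1 (ENSMUSG00000061232, chromosome 17, 33996017 to 34000333) had 206, 140 and 150 CPM against 199.5, 7.96 and 273 CPM. The control 2 value of H2-K1 rested on 157 counts and lay 17.6-fold under the lowest of the other libraries, whereas that of H2-D1 was 1.43-fold over the highest. The light chain B2m (ENSMUSG00000060802, chromosome 2, 122147686 to 122153083) had 370, 285.5 and 285 CPM against 293, 544 and 257 CPM. Groups overlapped for all of them. Log2 fold changes were 0.05 (SE 0.88) for H2-K1, -0.13 (SE 0.27) for H2-D1 and -0.22 (SE 0.27) for B2m, each with an edgeR adjusted p of 0.9995. Without control 2 they were -0.52 (SE 0.20), 0.27 (SE 0.14) and 0.19 (SE 0.15). Thus H2-K1 and H2-D1 lay on opposite sides of 0 in both fits and exchanged sides between them.

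The class I transactivator Nlrc5 showed 9.85, 6.12 and 6.23 CPM in the libraries labelled knockout and 5.10, 26.7 and 5.78 CPM in the controls. Control 2 was 2.71-fold over the highest other library. The fold change was -0.77 (SE 0.60) and became 0.44 (SE 0.27) without control 2. Summed class I levels (H2-K1, H2-D1, B2m and Nlrc5) were 873 ± 133 CPM against 960 ± 215 CPM (SD, n = 3 each). Control 2 stood at 1209 CPM and the other controls at 843 and 829 CPM. In control 2, H2-D1 and B2m held 630 and 544 CPM of this sum and H2-K1 7.96 CPM. The median log2 fold change of the 4 class I members was -0.17, and 0.23 without control 2.

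Peptide transport and loading genes shared the pattern of B2m. Tap1 stood at 17.9, 11.7 and 15.2 CPM by label against 12.3, 34.2 and 13.1 CPM in the controls. Its partner Tap2 stood at 31.2, 24.2 and 30.9 CPM against 24.0, 51.1 and 22.7 CPM. Tapbp, which bridges transporter and class I chain, stood at 113, 83.4 and 95.0 CPM against 83.7, 136 and 83.6 CPM. Control 2 was the highest library for all 3 genes, and without it the groups overlapped for Tap1 and Tapbp but not for Tap2. Fold changes were -0.41 (SE 0.39), -0.18 (SE 0.30) and -0.06 (SE 0.21), and without control 2 all 3 were positive, between 0.21 and 0.30. Tap1 and Psmb9 lie head to head with overlapping starts on chromosome 17 (34187553 to 34197225 and 34181988 to 34187764), and 3.44% of the 75-base words of Psmb9 transcripts also occur in Tap1.

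The immunoproteasome subunits also had their highest value in control 2. Psmb8 had 19.9, 12.2 and 12.0 CPM in the libraries labelled knockout and 11.5, 29.8 and 12.0 CPM in the controls. For Psmb9, the same libraries had 7.59, 4.92 and 6.32 CPM against 6.92, 16.2 and 5.55 CPM. Psmb10 had 18.7, 11.04 and 9.87 CPM against 11.8, 24.4 and 12.3 CPM. Knockout 1 was second to control 2 for each of these subunits. The median over these subunits was -0.29, and 0.13 without control 2. None was called (log2 fold changes -0.28, -0.61 and -0.29, SE 0.39, 0.39 and 0.34), and without control 2 the values were 0.32, 0.01 and 0.13 (SE 0.24, 0.25 and 0.28). These subunits take the place of the constitutive Psmb5, Psmb6 and Psmb7, so the log2 ratio of each pair was compared within libraries. The Psmb8 to Psmb5 ratio was -2.42 ± 0.66 against -2.38 ± 0.81 (SD, n = 3 each; exact two-sided permutation p = 1). The Psmb9 to Psmb6 ratio was -4.10 ± 0.30 against -3.61 ± 0.95 (exact p = 0.6), and the Psmb10 to Psmb7 ratio was -3.39 ± 0.45 against -3.02 ± 0.80 (exact p = 0.5). Adjusted over the 3 pairs the exact p-values were 1, 0.9 and 0.9, where 3 against 3 cannot go below 0.1. In control 2 the ratios were highest of all libraries, at -1.45, -2.52 and -2.12.

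**Figure D3:**
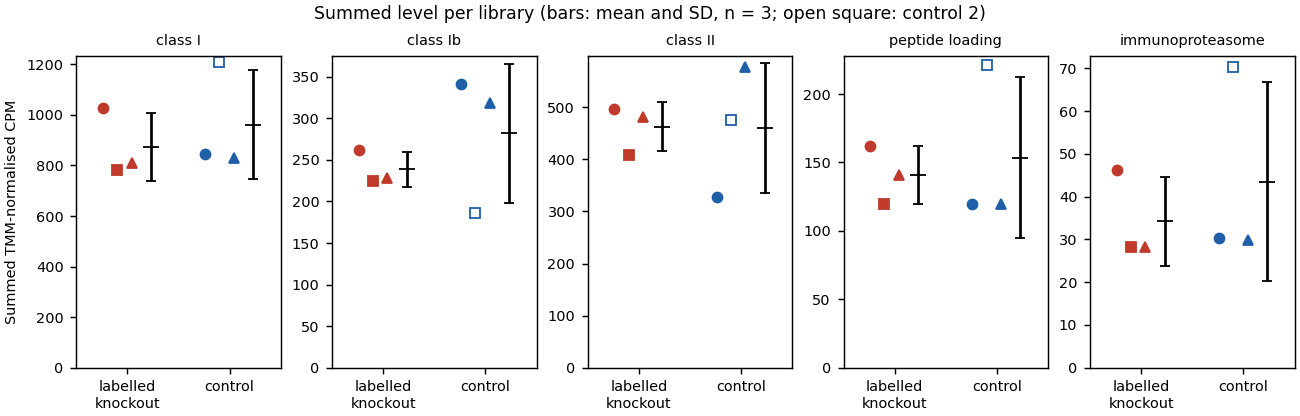
Summed TMM-normalised CPM of each class in each library (points), with mean and SD over 3 libraries (bars). Class I includes B2m and Nlrc5, and class II includes Cd74 and Ciita. Control 2 (open square) is the highest library for class I, peptide loading and the immunoproteasome and the lowest, at 186 CPM, for class Ib.

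Class Ib genes encode non-classical heavy chains, among them H2-T23 (Qa-1, a ligand of the inhibitory receptor CD94/NKG2A), H2-M3, which presents formylated peptides, and the Qa-2 genes H2-Q6 and H2-Q7. Of 26 members, 13 were tested and 11 had no counts. H2-T22 and H2-T23 were abundant in 5 libraries and low in control 2. H2-T23 had 67.8, 56.8 and 47.1 CPM by label and 92.3, 0.760 and 95.1 CPM in the controls, the 0.760 CPM resting on 15 counts, 62.0-fold under the lowest other library. H2-T22 had 64.3, 67.4 and 72.0 CPM against 102.5, 8.92 and 87.6 CPM. Their log2 fold changes were -0.13 (SE 1.02) and 0.04 (SE 0.66), and -0.71 (SE 0.16) and -0.49 (SE 0.11) without control 2. H2-Q5 had 1.85, 1.51 and 1.25 CPM against 4.13 and 3.97 CPM in controls 1 and 3, with no count in control 2 (-0.80, SE 0.98, and -1.40, SE 0.28, without it). By contrast H2-Q4, which lies between H2-D1 and H2-Q5, was highest in control 2, with 54.3, 39.7 and 48.6 CPM against 45.04, 91.7 and 42.1 CPM (-0.33, SE 0.29, and 0.13, SE 0.15, without it). The summed class Ib level was 239 ± 20.7 CPM by label and 282 ± 83.9 CPM in the controls (SD, n = 3 each), which stood at 342, 186 and 318 CPM. Over the 13 tested members the median log2 fold change was -0.33, and -0.60 over 14 tested without control 2.

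H2-Q6 and H2-Q7 were the class Ib genes with an unadjusted p under 0.05. H2-Q6 (ENSMUSG00000073409, chromosome 17, 35424850 to 35430055) had 30.9, 25.8 and 23.6 CPM by label and 49.35, 34.3 and 44.75 CPM in the controls, which did not overlap. Its log2 fold change was -0.68 (SE 0.17; edgeR adjusted p = 0.9995) and -0.82 (SE 0.14; adjusted p = 0.545) without control 2. H2-Q7 had 23.7, 14.8 and 13.2 CPM against 33.9, 20.1 and 31.0 CPM, with the control 2 value inside the labelled knockout range, and a fold change of -0.71 (SE 0.27; -0.91, SE 0.24, without control 2). The 2 genes are close copies: 21.1% of the 75-base words of H2-Q6 transcripts occurred in transcripts of other genes, and of H2-Q6 9.8% in those of H2-Q7 itself. Division of reads between them by the authors' counting is uncertain.

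A further set of class Ib genes separated controls 1 and 3 from the libraries labelled knockout, with control 2 beside the latter. H2-T10 had 9.33, 8.83 and 13.2 CPM by label against 2.67 and 2.45 CPM in controls 1 and 3 and 17.7 CPM in control 2. H2-Q1 had 1.97, 0.946 and 1.15 CPM against 0.303 and 0.0584 CPM, with 2.58 CPM in control 2. The values of controls 1 and 3 rested on 5 and 1 counts, and that of control 3 lay under its 3-count bound of 0.175 CPM. H2-M3 had 3.25, 3.79 and 3.09 CPM against 1.94 and 1.40 CPM, with 5.17 CPM in control 2. These 3 genes, grouped after their values were seen, stood high in 4 libraries and low in the same pair of controls. Their log2 fold changes moved from 0.45 (SE 0.69), 0.42 (SE 0.93) and 0.24 (SE 0.46) to 2.03 (SE 0.26), 2.87 (SE 0.71) and 1.01 (SE 0.29) without control 2, with edgeR adjusted p of 0.21, 0.9055 and 0.9925. H2-T24 had the opposite order, with 3.07, 3.15 and 3.55 CPM by label and 2.79 CPM in control 2 against 5.71 and 6.13 CPM in controls 1 and 3 (-0.57, SE 0.31, and -0.86, SE 0.21, without control 2). H2-Bl, named after its values were seen, had 4, 2 and 2 counts by label and 29, 0 and 20 counts in controls 1, 2 and 3. For all these genes, transcript level and match of reads to the reference allele cannot be told apart, with or without control 2.

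Of the remaining tested class Ib genes, H2-M2 had 0.811, 0.757 and 0.738 CPM against 0.182, 0.0507 and 0.701 CPM, resting on 1 to 16 counts a library (log2 fold change 1.31, SE 0.71, and 0.78, SE 0.61, without control 2). H2-Q2 had 0.638, 0.757 and 0.415 CPM against 1.52, 1.37 and 0.643 CPM (-0.98, SE 0.45, and -0.85, SE 0.53, without it). H2-Q10 had 0.29, 0.568 and 0.646 CPM against 0.364, 0.659 and 0.935 CPM (-0.37, SE 0.50, and -0.36, SE 0.61, without it). Groups overlapped for H2-Q2 and H2-Q10. Of the words of H2-T22 and H2-T10 transcripts, 40.0% and 36.0% also occurred in transcripts of other genes. Among the other genes low in control 2, H2-Aa and H2-Ab1 shared 0 words, H2-K1 3.1%, H2-T23 5.91%, H2-DMb1 15.8% and H2-Q5 21.2%.

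Class II genes divided in the same way within control 2. H2-Aa (ENSMUSG00000036594, chromosome 17, 34282744 to 34287827) had 65.4, 50.3 and 53.6 CPM by label and 41.3, 6.39 and 94.3 CPM in the controls. Its beta partner H2-Ab1 had 74.3, 57.5 and 69.6 CPM against 52.3, 8.56 and 126 CPM. Controls 1, 2 and 3 therefore spanned a wider range than the libraries labelled knockout, which lay between controls 1 and 3. Fold changes were 0.26 (SE 0.70) and 0.11 (SE 0.71), and -0.27 (SE 0.31) and -0.41 (SE 0.32) without control 2. H2-Eb1 had 91.6, 72.9 and 80.4 CPM against 45.2, 55.2 and 110 CPM, with control 2 inside the range of the others (0.22, SE 0.30, and 0.07, SE 0.33, without it). Cd74, the invariant chain, had 238, 206 and 248 CPM against 167, 366 and 206 CPM, so that control 2 was highest for the invariant chain and lowest for both A chains (-0.10, SE 0.27, and 0.30, SE 0.14, without it).

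The H2-DM genes, whose products exchange peptides on class II molecules, were split as well. H2-DMa had 8.23, 6.37 and 8.76 CPM by label and 5.71, 15.5 and 7.48 CPM in the controls. H2-DMb1 had 9.91, 7.70 and 10.98 CPM against 5.22, 2.08 and 17.5 CPM, and H2-DMb2 had 2.43, 1.01 and 2.08 CPM against 2.19, 7.55 and 1.46 CPM. Log2 fold changes of H2-DMa, H2-DMb1 and H2-DMb2 were -0.30 (SE 0.35), 0.21 (SE 0.63) and -1.02 (SE 0.62), and 0.24 (SE 0.23), -0.25 (SE 0.44) and 0.02 (SE 0.44) without control 2. In control 2 the 2 beta chain genes exchanged ranks, H2-DMb1 being lowest and H2-DMb2 highest of the 6 libraries, and 15.8% of the words of H2-DMb1 also occur in H2-DMb2. The H2-DM inhibitors H2-Oa and H2-Ob had 0.464, 0.82 and 0.646 CPM against 0.607, 0.0507 and 1.05 CPM, and 1.22, 0.946 and 1.48 CPM against 1.09, 0.507 and 2.28 CPM. Their log2 fold changes were 0.20 (SE 0.75) and -0.07 (SE 0.53), and -0.37 (SE 0.49) and -0.47 (SE 0.44) without control 2. H2-Eb2 had at most 5 counts in a library and was not tested. Over 10 tested class II members the median log2 fold change was 0.02, and -0.26 without control 2.

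Ciita (ENSMUSG00000022504, chromosome 16, 10488178 to 10527564), the class II transactivator, was the class II member whose groups did not overlap. It had 5.56, 5.80 and 5.77 CPM by label and 6.43, 13.3 and 10.3 CPM in the controls. The labelled knockout values lay within 0.3 CPM of each other and just under control 1. The log2 fold change was -0.81 (SE 0.26; edgeR adjusted p = 0.9995), and -0.56 (SE 0.24) without control 2. The summed class II level, with Cd74 and Ciita included, was 463 ± 47.0 CPM against 460 ± 125 CPM, with the controls at 328, 476 and 577 CPM. In control 2, Cd74 held 366 CPM of this sum, and H2-Aa and H2-Ab1 held 6.39 and 8.56 CPM.

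**Figure D4:**
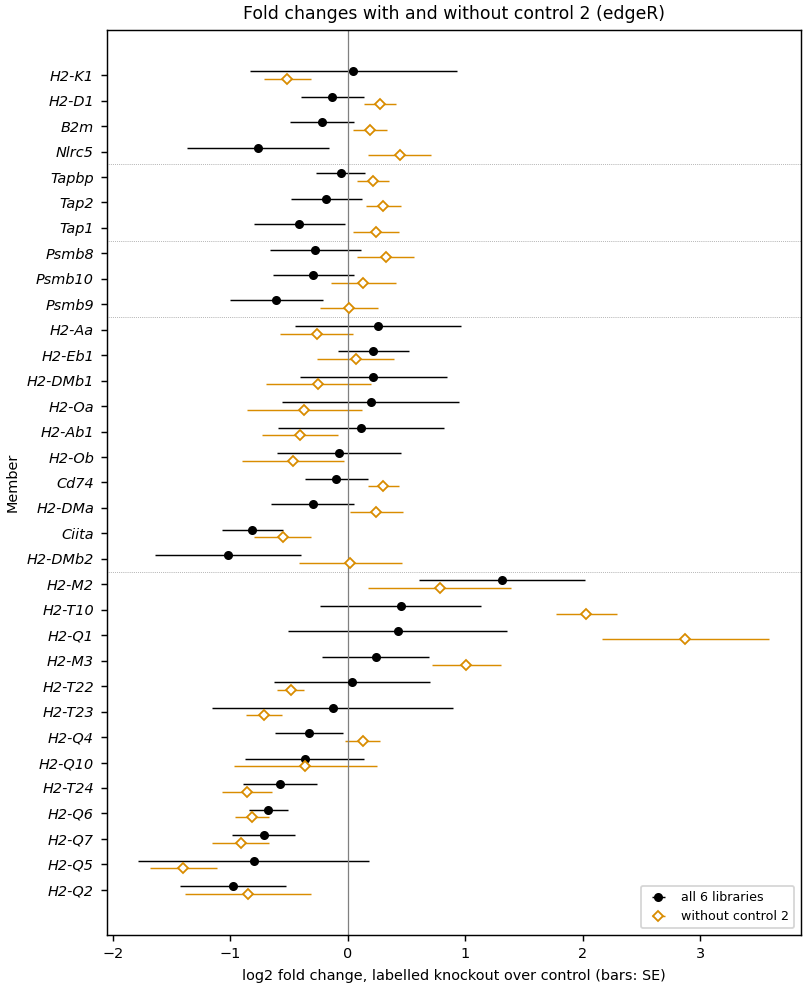
Log2 fold change of each tested class I, loading, immunoproteasome, class II and class Ib member, labelled knockout over control, with its SE; filled circles use all 6 libraries and open diamonds leave out control 2. Of 33 estimates, 19 cross 0 when control 2 is left out, and none is called in either fit.

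For 2 of the genes low in control 2, transcripts that held little of the gene elsewhere took a large share of its counts; these genes were chosen after their values were seen. Of the H2-T22 counts in control 2, 85.1% were assigned to transcript ENSMUST00000058801, which held 0 to 4.74% of that gene in the other libraries. Of the H2-Aa counts, 48.4% were assigned to ENSMUST00000174751, which held 0 to 0.346% elsewhere. The other 4 genes tested with counts in control 2 kept most of them on the transcript that held most elsewhere: H2-K1 had 118.5 of 157 counts there, H2-Ab1 167.9 of 169, H2-T23 11.4 of 15 and H2-DMb1 41 of 41. H2-K1 had a smaller shift: 28.8 of its 157 control 2 counts were assigned to ENSMUST00000173602. That transcript held 11.5 to 44.7 counts in the other libraries, where the gene had 2216 to 4668. These are the authors' transcript assignments.

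Compared per length, by the authors' FPKM averaged over the controls, B2m was the most abundant member at 429, followed by H2-D1 (209), Cd74 (198) and H2-K1 (97.97). These means include control 2, where H2-K1 had 5.47 FPKM, against 121 and 168 in controls 1 and 3. In control 3 H2-K1 lay over Cd74 (158) and H2-D1 (137), but in control 1 under both. Control 2 also lowered the control means of H2-T23 (0.51 FPKM there), H2-T22, H2-Aa and H2-Ab1, and raised those of B2m, H2-D1 and Cd74. In the libraries labelled knockout the order was the same, at 365, 188, 183 and 105 FPKM. In the controls H2-Ke6 (92.3) came next, and the class II chains H2-Eb1, H2-Ab1 and H2-Aa followed at 58.8, 50.04 and 41.0 FPKM, next to H2-T23 (40.2), Tapbp (39.9), H2-T22 (37.1), H2-Q4 (31.6), H2-Q6 (23.8) and Psmb8 (17.05). H2-D1 and Cd74, and the genes from H2-Ab1 to H2-T22, lay closer to each other than the spread between controls. The transactivators were lower, Nlrc5 at 6.49 FPKM in control 2 and at most 1.58 FPKM in controls 1 and 3, and Ciita at 1.18, 2.68 and 1.91 FPKM in controls 1 to 3, so that Nlrc5 lay over Ciita in control 2 and under it in controls 1 and 3. H2-Ke6, an H2- name that belongs to a steroid dehydrogenase gene and not to an MHC chain, stood between 82.0 and 98.9 CPM in all libraries (0.07, SE 0.10), and H2-K2 held 1 to 17 counts.

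Other genes of the pathway were taken from fixed lists. Of 13 peptide processing and loading genes 0 were called in either direction (median log2 fold change -0.01). The chaperones Hspa5, Calr and Canx, the most abundant, stood at 713 ± 189.5 against 982 ± 236.5 CPM, 637 ± 95.8 against 704.5 ± 177 CPM and 532 ± 47.2 against 553 ± 58.1 CPM (SD, n = 3 each). Of 9 tested class II processing genes 0 were called (median 0.02), and the lysosomal proteases Lgmn, Ctsd and Ctsb had log2 fold changes of -0.02 (SE 0.12), 0.05 (SE 0.15) and 0.02 (SE 0.13). Of 17 regulators 0 were called (median -0.02). Jak1, the interferon receptor kinase, was at -0.07 (SE 0.10) and the Y box factor Nfyc at 0.05 (SE 0.10). Of 6 class I-like genes outside the MHC 0 were called (median 0.04). Fcgrt, the neonatal Fc receptor chain that pairs with B2m, was at 0.11 (SE 0.15), Hfe, the class I-like iron regulator, at -0.02 (SE 0.17) and Azgp1, a soluble class I-like glycoprotein, at -0.63 (SE 0.19; edgeR adjusted p = 0.9995).

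Markers of cells that present antigen were examined beside the class II levels. The 8 dendritic cell markers summed to 17.5 to 20.8 CPM by label and 17.5 to 24.9 CPM in the controls, highest in control 2. The 9 macrophage and monocyte markers summed to 143.5 to 195.5 CPM by label against 127.6 to 142.7 CPM. The sums thus did not overlap, by a narrow margin between knockout 3 and control 3. Of the 9, 9 had a log2 fold change above 0 (median 0.31), as did 7358 of 15017 genes, and 0 were called. Gene by gene, groups did not overlap for 1 of 9, where 8.18% of all genes did not. The 5 B cell markers summed to 2.90 to 3.41 CPM against 1.62 to 4.91 CPM, lowest in control 2 and highest in control 3, and the 6 T cell markers to 5.21 to 8.75 CPM against 5.46 to 7.91 CPM. No marker of these lists was at 0 in every library. The order of the controls for H2-Aa and H2-Ab1 was that of the B cell sum, control 3 over control 1 over control 2, and the part of cell content in class II levels was not tested.

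Genes lying between the members were compared in the interval from the first to the last H2- gene (chromosome 17, 33974831 to 37483552, GRCm38). Of 273 other genes there, 88 were tested, 0 were called, and 8 had groups that did not overlap (9.09%, against 8.18% of all genes). Their median log2 fold change was -0.02. Not all of them were unrelated to the members, since the pseudogene H2-T-ps was among the tested. BC023719 held 23.7% of the 75-base words of H2-T10, A930015D03Rik 25.2% of those of H2-T22 and Gm11131 13.4% of those of H2-Q4. Without control 2, 27 of 89 tested did not overlap, where 19.3% of all genes did not, 10 had an unadjusted p under 0.05 and 0 were called by edgeR, and the median was -0.08. Control 2 lay over 4-fold under the median of the other libraries for 3 of the 88 (C4a, Gm11127 and Hspa1a), and for 7 of the 29 tested members in the interval. Complement gene C4a had 0.862 CPM in control 2 and 2.78 to 6.68 CPM elsewhere, and Gm11127 had 1.12 CPM against 7.51 to 16.2 CPM. Hspa1a, a heat shock gene, varied from 13.9 to 792 CPM over the 6 libraries.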

How the data were processed

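The authors deposited estimated counts and FPKM values for 128603 Ensembl transcripts in 6 kidney libraries, per the file headers. Per the submitters' processing notes, the tools included HISAT2 2.0.1, Cuffdiff 2.2.1, cutadapt 1.9.1, FastQC 0.10.1 and bcl2fastq 2.17.1.14, and GRCm38 was named as build. Which program made the counts, and whether strand was used, is not stated there. Division of reads between near-identical H2 genes follows that program's rules.

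Estimated counts were summed per gene symbol and rounded. All 6 libraries entered edgeR's quasi-likelihood test (version 4.0.16, R 4.3.3; TMM scaling, filter at a minimum count of 10, a group term alone). P-values were two-sided and adjusted by Benjamini and Hochberg's method over 15017 genes, with 0.05 as the threshold. The SE was derived from the fold change and its F statistic. The procedure was tested on simulated data. Alternatives were DESeq2 1.42.0, its scaling within edgeR, no filter, minimum count 30, limma 3.58.1 on log2(FPKM + 1) and log2(FPKM + 0.1) for genes with an FPKM of at least 1 in 3 libraries, gene ID sums, the replicate number as a block, and each library left out. Authors' FPKM were summed per gene to compare levels between genes.

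Every class I, class II, loading and immunoproteasome member, and each class Ib member tested or at 1 CPM or more, was named; from each pathway list, the 3 most abundant (1 regulator is not reported here). Members and lists were chosen with earlier results of these data known. The intended protein comparison was replaced by counting 75-base words of GENCODE M21 transcripts found in transcripts of other genes, since no protein table was at hand. Exact permutation tests served the 3 subunit ratios.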

Additional observations from a re-analysis of the deposited data

How the results depend on the processing

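Of 246 member results under other settings (all libraries kept), 239 kept direction and side of the threshold and 7 changed sign. With 1 library left out, 167 of 198 kept both and 31, in 24 members, changed sign. These counts take no account of size. H2-K1, at 0.047, was 0.039 with DESeq2 but 0.829 with the replicate block and 1.035 with limma at pseudocount 1. H2-Aa, at 0.256, was 0.247, 0.846 and 0.814 in the same order. Over all genes the count called was 2, and it was 15 with DESeq2, 5 with no filter, 1 with limma at either pseudocount and between 1 and 6 with 1 library left out; the cause was not tested. The class Ib median log2 fold change was 0.398 with limma at pseudocount 0.1, over the members that passed its filter. Signs turned for H2-Ob with the replicate block (0.061), for H2-Q5 with limma at pseudocount 0.1 (0.398), for H2-T23 with the block (0.662) and limma (1.118 at pseudocount 1 and 1.534 at 0.1), and for Tapbp with limma (0.083 and 0.086). Deviations of same-numbered libraries correlated weakly, at 0.09, -0.091 and 0.116. Knockout 1 and knockout 3 correlated best with the control of their own number, and knockout 2 with control 3 (0.072). For knockout 1 the margin was small (0.076 with control 2). These values do not settle whether libraries were paired. The block called 2 genes and 0 members. Groups of 16 members, 11 of them class Ib, did not overlap without control 2, an alternative chosen after seeing the data.

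With each library left out in turn, medians ranged, over the members tested with all 6 libraries, as class I -0.376 to 0.232, class Ib -0.485 to -0.114, class II -0.259 to 0.662, peptide loading -0.386 to 0.238, immunoproteasome -0.63 to 0.133. Log2 fold changes ranged over B2m -0.415 to 0.189, H2-D1 -0.336 to 0.274, H2-K1 -0.515 to 0.675, Nlrc5 -1.139 to 0.441, Cd74 -0.312 to 0.303, H2-Aa -0.266 to 1.251, H2-Ab1 -0.408 to 1.147, H2-DMa -0.561 to 0.242, H2-DMb1 -0.251 to 1.399, H2-DMb2 -1.399 to 0.022, H2-Eb1 -0.019 to 0.701, H2-Oa -0.37 to 1.011, H2-Ob -0.466 to 0.624, H2-M3 -0.087 to 1.009, H2-Q1 -0.114 to 2.871, H2-Q4 -0.524 to 0.126, H2-T22 -0.485 to 0.496, H2-T23 -0.712 to 0.305, Psmb10 -0.63 to 0.133, Psmb8 -0.554 to 0.321, Psmb9 -0.88 to 0.011, Tap1 -0.662 to 0.238, Tap2 -0.386 to 0.303, Tapbp -0.18 to 0.214. Group differences in the log2 subunit ratio ranged over Psmb8 to Psmb5 -0.327 to 0.428, Psmb9 to Psmb6 -0.789 to 0.058, Psmb10 to Psmb7 -0.657 to 0.089. Of the 33 members, 19 changed sign without control 2. Depth limits the members under 1 CPM, and the H2-T23 level in control 2 rests on 15 counts.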
